A study of Drosophila melanogaster with 8 samples.

Results

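The V-ATPase subunit genes of the Drosophila midgut were described in flies fed quercetin (Que), a plant flavonoid, and in flies fed its solvent DMSO. Members were the genes whose symbol begins with Vha, which gave 30 of the 19299 features in the expression table. Of these, 12 encode subunits of the V1 sector, 17 encode subunits of the V0 sector and 1, VhaAC45, encodes an accessory protein. RNA-seq was done on dissected midguts of wild-type (WT) female flies, labelled 40 to 50 days old, in 4 samples with 10 µM Que and 4 samples with DMSO. Feeding started on day 26 and lasted 14 days, each sample held 200 pooled midguts, and no other agent or allele separated the groups. The study asked what Que changes in the gene expression of the aged intestine. The labels do not say that the 4 samples of a group came from separate fly cultures, so p-values measure only the spread between these samples, which may be technical.

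The V-ATPase is a rotary proton pump. Its V1 sector, in the cytoplasm, hydrolyses ATP, and the energy turns a ring of the V0 sector in the membrane that carries protons across it. The pump acidifies lysosomes and endosomes in every cell, and lysosomal V-ATPase takes part in the sensing of amino acids by the TOR kinase. In the fly midgut it also works at the surface of the acid-secreting copper cells of the middle midgut. Several subunits have more than one gene, and in Drosophila many of the extra copies are known as testis transcripts.

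Expression was given as RPKM, a read count divided by gene length in kilobases and by the sample's total of assigned reads, scaled to 1000000. Assigned reads ranged from 27253832 (Que 3) to 35619139 (DMSO 2). The 30 members together took 1.42% to 1.65% of the assigned reads in the Que samples and 1.46% to 1.63% in the DMSO samples, so the groups overlapped. The midgut held 19 members at a mean of 5.62 to 2469 RPKM, backed by 370 to 285796 reads per sample, and 11 members at a mean of at most 0.184 RPKM. No member lay between 0.184 and 5.62 RPKM. For each of the 13 subunits, the gene with the highest mean over the 8 samples is called dominant here.

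**Figure D1:**
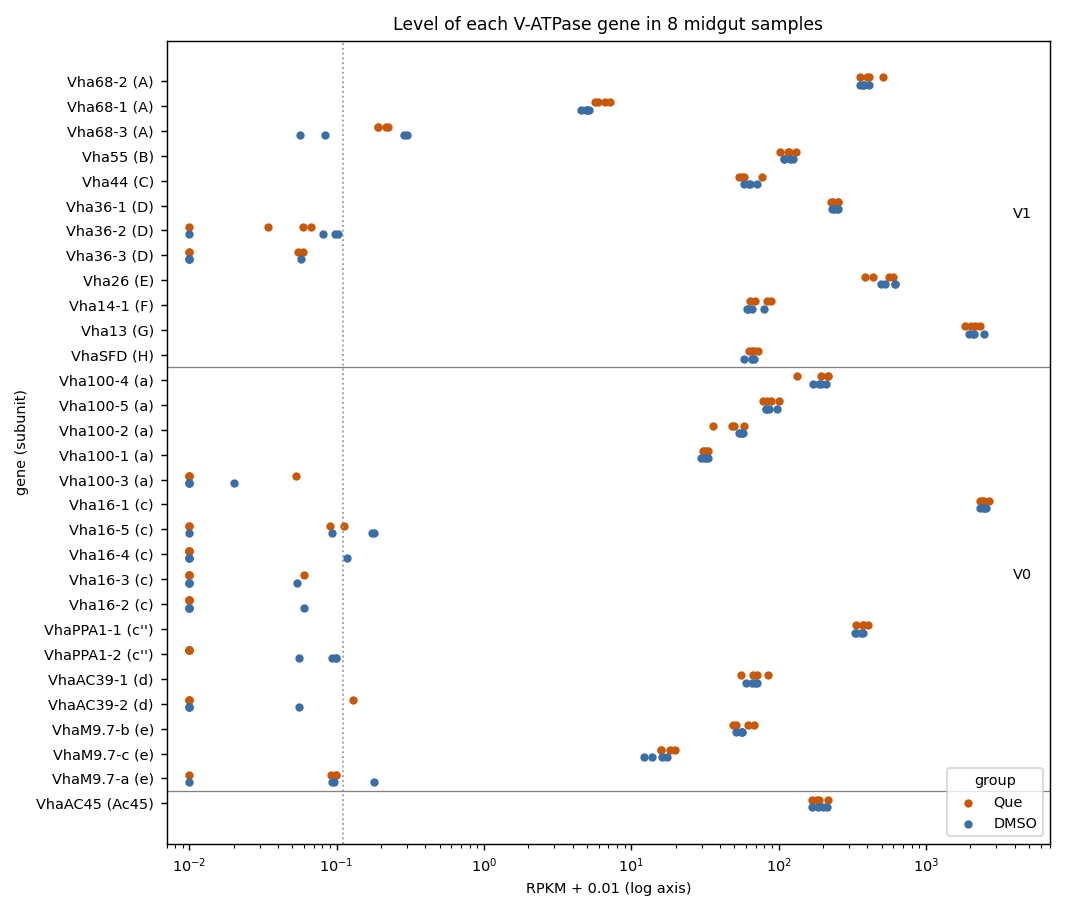
Level of the 30 V-ATPase genes (vertical axis, grouped by sector and subunit) as RPKM + 0.01 on a log axis, with 1 point for each of the 4 Que and 4 DMSO samples. The dotted line marks the mean of 0.1 RPKM needed for testing. The 19 abundant genes stand at 5.62 to 2469 RPKM on average, and the 11 others lie at or below 0.184 RPKM on average.

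None of the 20 members that could be tested differed between Que and DMSO at an adjusted p under 0.05 (limma with Benjamini-Hochberg adjustment over 13249 genes), and 0% of all genes tested did. The smallest adjusted p of any gene was 0.0905. At an unadjusted p under 0.05, 1 of 20 members (5%) was called against 3.62% of all genes, and the groups did not overlap for the same single member against 2.14% of all genes. This member was Vha68-1, a minor gene for the catalytic A subunit, which was higher with Que, as were 1.68% of all genes at that unadjusted p. voom, a variant within limma run on reads recovered from the same RPKM values, likewise called only Vha68-1 at an unadjusted p under 0.05. The median log2 fold change, Que minus DMSO, of the 20 members was 0.02, with 14 above 0 and 6 below, beside a median of -0.02 over all genes with 47.0% above 0. Where the mean reached 5 RPKM, the median size of the log2 fold change was 0.05 over 19 members and 0.11 over all 6466 genes. The 95% interval of the log2 fold change lay within 0.5 of 0 for 15 of the 20 members. A p above the threshold does not show that the levels were the same, and these intervals give the sizes the data leave possible.

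**Figure D2:**
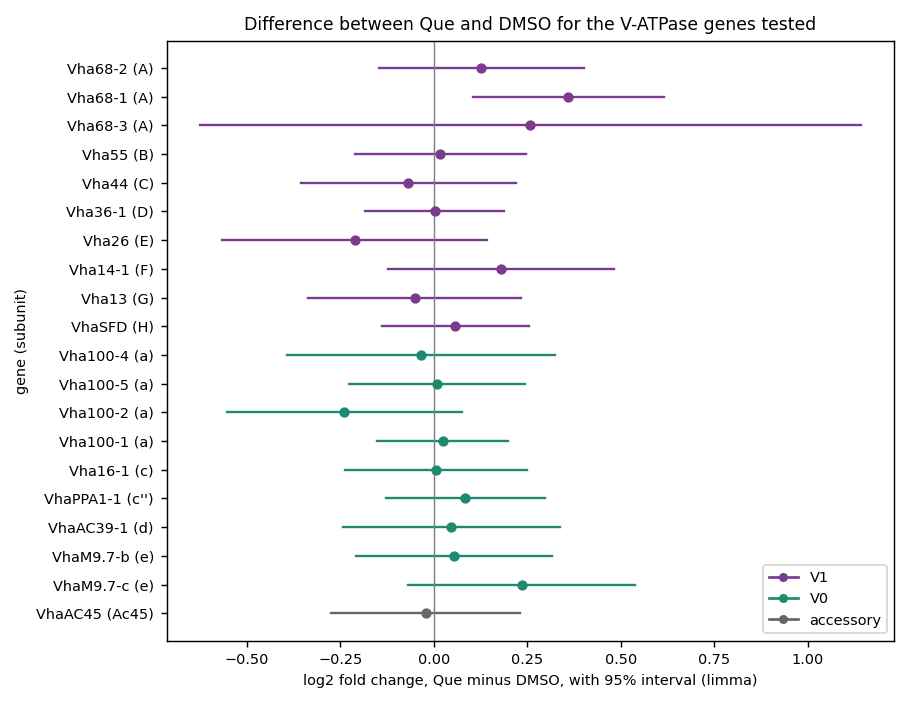
log2 fold change (Que minus DMSO, horizontal axis) with its 95% interval for the 20 V-ATPase genes tested, coloured by sector. Only the interval of Vha68-1, from 0.10 to 0.62, leaves out 0, and the widest interval belongs to Vha68-3, which had few reads.

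The V1 sector was described first by its ATP-hydrolysing head. Subunits A and B alternate in a ring, with the catalytic sites on A. Vha68-2, the dominant A gene, lies on chromosome 2L (12974322 to 12978607, plus strand, Release 6) and stood at 355, 400, 511 and 412 RPKM in Que 1 to 4 and at 358, 380, 376 and 411 RPKM in DMSO 1 to 4. Que 3 was the highest sample and the groups overlapped, with a log2 fold change of 0.13 (SE 0.12, exact permutation p = 0.4), and it was 0.03 when Que 3 was left out and 0.20 when Que 1 was left out. Vha55, the single gene for subunit B, measured 102, 132, 118 and 115.2 RPKM with Que and 109, 125, 108 and 119 RPKM with DMSO. The values of Vha55 overlapped and its log2 fold change was 0.02 (SE 0.10).

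Vha68-1 lies on the same arm (13000770 to 13004107, minus strand) and encodes a protein of the same length as Vha68-2, 614 residues. Its level was 5.64, 5.94, 7.13 and 6.63 RPKM in Que 1 to 4 against 4.996, 4.90, 4.52 and 5.18 RPKM in DMSO 1 to 4. Every Que sample was above every DMSO sample, which held for 0.876% of all genes in this direction. The mean was 6.33 ± 0.671 RPKM (SD, n = 4) in the Que group and 4.90 ± 0.279 RPKM (SD, n = 4) in the DMSO group, and 404 to 561 reads stood behind each value. The fold change was 1.28 (95% interval 1.08 to 1.53), or 0.36 on the log2 scale (SE 0.11). The unadjusted p was 0.0109 and the adjusted p was 0.946 in limma, and the exact two-sided permutation p was 0.0286, the smallest that 4 against 4 samples can give. Its unadjusted p was under 0.05 under all 19 other settings tried, where its log2 fold change ranged from 0.30 to 0.41, and the adjusted p of limma from 0.401 to 1. Vha68-1 is on a ranked gene list that the study drew from these samples, so its place there is no independent evidence.

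The difference in Vha68-1 was small beside the A subunit as a whole. Vha68-1 made up 1.38% to 1.58% of the summed A subunit RPKM with Que and 1.19% to 1.38% with DMSO. The ranges almost touched, with the lowest Que share at 1.3755% and the highest DMSO share at 1.3752%. Vha68-2 held 98.4% to 98.8% in all samples. The third A gene, Vha68-3, follows Vha68-2 on the same strand after a gap of 178 bases and had 4 to 24 reads per sample, or 0.05 to 0.29 RPKM. Its 4 Que values lay between the lower and the upper pair of DMSO values, and its log2 fold change was 0.26 (SE 0.39). The sources used here do not state how reads with several alignments were counted, so the split of reads between paralogs is uncertain where their sequences are alike.

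The stalks of V1 join the head to the membrane. Vha13, the gene of the peripheral stalk subunit G, was the most abundant V1 gene and ranked 34th among all genes by mean RPKM. It stood at 2320, 2012, 2144 and 1840 RPKM in Que 1 to 4 and at 2478, 2112, 2076 and 1952 RPKM in DMSO 1 to 4. DMSO 1 was the highest and Que 4 the lowest sample, and the log2 fold change was -0.05 (SE 0.13). Vha26, which encodes the partner subunit E, measured 558, 598, 387 and 435 RPKM with Que and 619, 619, 498 and 531 RPKM with DMSO. Que 3 and Que 4 were below all DMSO samples while Que 1 and Que 2 were within their range. The log2 fold change of Vha26 was -0.21 (SE 0.16, exact permutation p = 0.286), and it was -0.10 without Que 3 and -0.31 without Que 2.

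The central stalk, which turns inside the head, is formed by subunits D and F. Vha36-1 (subunit D) had 228, 254, 253 and 234 RPKM with Que and 232, 248, 236 and 251 RPKM with DMSO. The groups covered almost the same range, and the log2 fold change was 0.0018 (95% interval -0.18 to 0.19). Vha14-1 (subunit F), the shortest abundant member with 659 bases, had 89.2, 64.3, 82.7 and 68.8 RPKM with Que and 80.0, 61.7, 66.0 and 61.1 RPKM with DMSO. Que 1, Que 3 and DMSO 1 were its highest samples, and the log2 fold change was 0.18 (SE 0.13, exact permutation p = 0.2), with 0.10 without Que 1 and 0.27 without DMSO 1.

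Subunits C and H regulate the coupling of V1 to V0. Vha44 (subunit C), the longest member with 4023 bases, had 58.1, 77.4, 53.9 and 56.5 RPKM with Que and 63.6, 71.1, 58.2 and 62.7 RPKM with DMSO. Que 2 was the highest and Que 3 the lowest sample, with a log2 fold change of -0.07 (SE 0.13). VhaSFD (subunit H) had 67.7, 71.9, 65.4 and 63.1 RPKM with Que and 66.1, 67.8, 57.7 and 66.1 RPKM with DMSO, and its log2 fold change was 0.06 (SE 0.09). The groups overlapped for both genes. Of the Vha44 bases, 148 (3.68%) are shared with Hmgs on the opposite strand. The strand setting of the counting is not given in the sources used here, so reads in such stretches cannot be assigned with certainty.

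In the V0 sector, the proton-carrying ring is built from the c and c″ subunits. Vha16-1 (subunit c) was the most abundant of all members and ranked 27th among all genes by mean RPKM. It stood at 2479, 2695, 2411 and 2313 RPKM in Que 1 to 4 and at 2572, 2473, 2334 and 2473 RPKM in DMSO 1 to 4. Highest and lowest value were both in the Que group, and the log2 fold change was 0.01 (95% interval -0.24 to 0.25). VhaPPA1-1 (subunit c″) had 407, 374, 372 and 337 RPKM with Que and 377, 331, 337 and 361 RPKM with DMSO. The values overlapped, with a log2 fold change of 0.08 (SE 0.09).

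VhaPPA1-2, the other c″ gene, lies 2052 bases from VhaPPA1-1 on chromosome 3R. It had 0 reads in the 4 Que samples and 2, 2, 2 and 1 reads in DMSO 1 to 4. These groups do not overlap, but all values lie under the detection floor of 3 reads per sample, so no fold change is given and no difference can be read at this depth.

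Subunit a forms the channels through which protons enter and leave the ring, and in Drosophila its paralogs differ in where they act. Unlike the other subunits it was shared among 4 genes in the midgut. Vha100-4, known from the acid-secreting copper cells, was dominant at 215, 193, 217 and 133 RPKM with Que and 209, 193, 172 and 189 RPKM with DMSO. Que 4 was the lowest sample by a wide margin, and the log2 fold change was -0.03 (SE 0.16) and ranged from -0.11 (without Que 3) to 0.13 (without Que 4) as single samples were left out. The other copper cell markers did not share one order in Que 4, where lab was lowest of the 8 samples at 3.87 RPKM, Ptx1 stood at 26.7 RPKM within the range of the others, and ct was second highest at 0.379 RPKM. In bulk tissue, fewer cells of a type and less RNA per cell cannot be told apart.

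Vha100-5 followed with 78.1, 101, 88.7 and 83.5 RPKM in Que 1 to 4 and 81.8, 97.4, 82.6 and 86.6 RPKM in DMSO 1 to 4. Its log2 fold change was 0.01 (SE 0.10), and 527 of its bases (18.1%) are shared with CR44144, an opposite-strand gene listed at 41.6 to 110 RPKM. Vha100-2 had 48.1, 58.6, 35.6 and 49.6 RPKM with Que and 56.7, 54.2, 55.0 and 57.1 RPKM with DMSO. The DMSO values of Vha100-2 were tightly grouped at 55.8 ± 1.36 RPKM, whereas the Que values spread over 48.0 ± 9.46 RPKM (SD, n = 4 in both). The log2 fold change of -0.24 (SE 0.14, exact permutation p = 0.143) became -0.10 without Que 3 and -0.34 without Que 2. Without Que 2, the unadjusted p of limma was 0.0262 for Vha100-2, in a fit where 9.02% of all genes had an unadjusted p under 0.05. Vha100-1, which works at synapses in the fly nervous system, was the steadiest member at 31.9 ± 0.969 RPKM (SD, n = 4) in the Que group and 31.4 ± 1.51 RPKM (SD, n = 4) in the DMSO group.

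As shares of the summed subunit a RPKM, Vha100-4 held 44.4% to 58.2% in the Que samples and 50.4% to 55.5% in the DMSO samples. Vha100-5 held 21.0% to 27.9% with Que and 21.7% to 25.9% with DMSO. For Vha100-2 the shares were 9.55% to 16.6% and 14.4% to 16.1%, and for Vha100-1 they were 8.30% to 11.02% and 7.82% to 9.36%. The Que samples covered the wider range of shares for all 4 genes. These are not 4 separate observations, because a share that falls raises the others. For Vha100-1 the upper end was Que 4 at 11.02%, while Que 1 to 3 stood at 8.30% to 8.44%. The ratio of Vha100-4 to Vha100-2, neighbours 517 bases apart on chromosome 3R, ran from 2.68 (Que 4) to 6.10 (Que 3) with Que and from 3.13 to 3.69 with DMSO. The fifth a gene, Vha100-3, did not reach the level needed for testing.

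**Figure D3:**
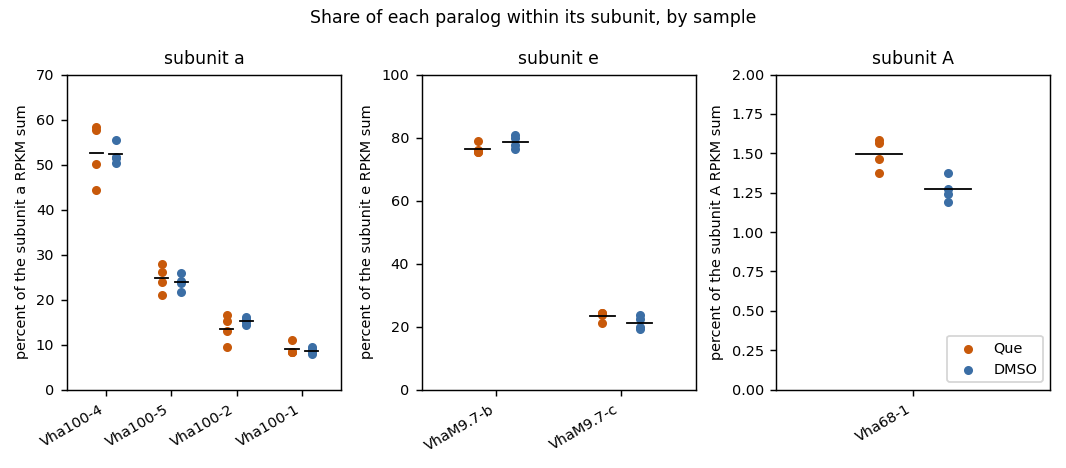
Share of each paralog in the summed RPKM of its subunit (vertical axis, percent), for subunits a, e and A, with 1 point for each of the 4 Que and 4 DMSO samples and a line at the group mean. The vertical scales differ between panels. Shares of the a genes, which depend on each other, spread more widely over the 4 Que samples. Vha68-1 stayed at or below 1.58% of subunit A in all 8 samples.

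Subunit d connects the ring to the central stalk. Its dominant gene VhaAC39-1 had 55.6, 70.8, 84.2 and 66.9 RPKM with Que and 59.6, 69.5, 66.2 and 71.0 RPKM with DMSO. The Que values enclosed all DMSO values, and the log2 fold change was 0.05 (SE 0.13). Subunit e is a small membrane protein of V0 with 2 genes detected above 1 RPKM. VhaM9.7-b had 61.6, 51.2, 68.0 and 49.0 RPKM with Que and 56.3, 51.2, 55.8 and 56.5 RPKM with DMSO, a log2 fold change of 0.05 (SE 0.12). VhaM9.7-c had 19.8, 15.9, 18.3 and 15.8 RPKM with Que and 16.2, 12.2, 13.8 and 17.4 RPKM with DMSO. Que 1 and Que 3 lay above all DMSO samples and the other Que samples lay within their range. Its log2 fold change was 0.23 (SE 0.13, exact permutation p = 0.171) and ranged from 0.15 to 0.31 as single samples were left out. It supplied 21.2% to 24.4% of the e subunit RPKM with Que and 19.3% to 23.6% with DMSO. The accessory gene VhaAC45, whose product assists assembly of the pump, had 168, 217, 181 and 189 RPKM with Que and 184, 201, 169 and 212 RPKM with DMSO, a log2 fold change of -0.02 (SE 0.11).

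The 10 members below the level for testing had 1 to 16 reads in total over the 8 samples and at most 4 reads in any sample. These were Vha36-2, Vha36-3, Vha100-3, Vha16-2, Vha16-3, Vha16-4, Vha16-5, VhaPPA1-2, VhaAC39-2 and VhaM9.7-a. Together with Vha68-3 they are the 11 low members. In each of subunits c, c″, D and d the dominant gene held at least 99.86% of the subunit RPKM in every sample. The testis markers dj, Mst87F, ocn and aly summed to at most 0.164 RPKM in any sample. The flies were female, so a low sum was given by the design and is no evidence about the low members. The gene models of the low members were simpler. Of the 11, 10 have at most 2 exon blocks and 8 have a single transcript, with at most 2. Of the 19 abundant members, 16 have 3 or more exon blocks, 5 have a single transcript, and Vha100-1 has 10.

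Among the abundant members the order of levels was only partly resolved. Of the 18 pairs of neighbours in the order of mean RPKM, 10 had ranges that overlapped over the 8 samples and 9 kept their order in all 8 samples. Vha16-1 was above Vha13 in all 8 samples although their ranges overlapped. The 6 genes from Vha14-1 to Vha100-2, with means of 71.7 down to 51.9 RPKM, overlapped from each to the next. Subunits did not have equal RNA levels in RPKM. Relative to subunit B (Vha55), the c subunit RPKM was 19.8 to 24.2 times as high, the G subunit 15.2 to 22.8 times, the E subunit 3.28 to 5.69 times and the A subunit 3.07 to 4.38 times. Subunit C stood at 0.456 to 0.586 and subunit H at 0.533 to 0.662 of subunit B.

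V1 and V0 were set against each other by sums and by medians. The summed RPKM of V1 was 1.01 to 1.11 times that of V0 with Que and 1.03 to 1.16 times with DMSO. Each sum rested mainly on 1 gene, since Vha13 gave 55.6% to 61.8% of V1 and Vha16-1 gave 72.5% to 75.1% of V0. Without these genes the ratio was 1.60 to 1.81 with Que and 1.72 to 1.88 with DMSO, and the groups overlapped. The median log2 fold change was 0.04 over 10 V1 members and 0.02 over 9 V0 members. For the dominant genes alone it was 0.01 over 8 in V1 and 0.05 over 5 in V0, so the order of the sectors turned with the choice of genes. The 13 dominant genes had a median of 0.02, and none had an unadjusted p under 0.05. The 6 other paralogs tested had a median of 0.13, with Vha68-1 highest at 0.36 and Vha100-2 lowest at -0.24.

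The members varied between samples of the same group along gene length. Over the 19 abundant members, the deviation of a sample from the mean of the 8 samples had a Spearman correlation with gene length of 0.68 in Que 2 and 0.62 in DMSO 2, and of -0.61 in Que 3 and -0.45 in Que 1. In the other 4 samples it was between -0.07 and 0.23. The same measure over 8842 genes was 0.51 in Que 2, 0.48 in DMSO 2, -0.38 in Que 3 and -0.30 in Que 1, so the same trends were seen over the whole transcriptome. These are descriptions across genes that share a library. Que 2 was the highest sample for 8 of the 19 members, Que 3 for 5, and Que 1 was the lowest for 6. With a fitted length trend removed from each sample, the log2 fold change was 0.14 for Vha14-1, -0.17 for Vha26, -0.19 for Vha100-2 and 0.40 for Vha68-1, and Vha68-1 was again the only member with an unadjusted p under 0.05. The coefficient of variation over the 8 samples was 3.81% to 16.2% among the 19 members, with a median of 11.04%.

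**Figure D4:**
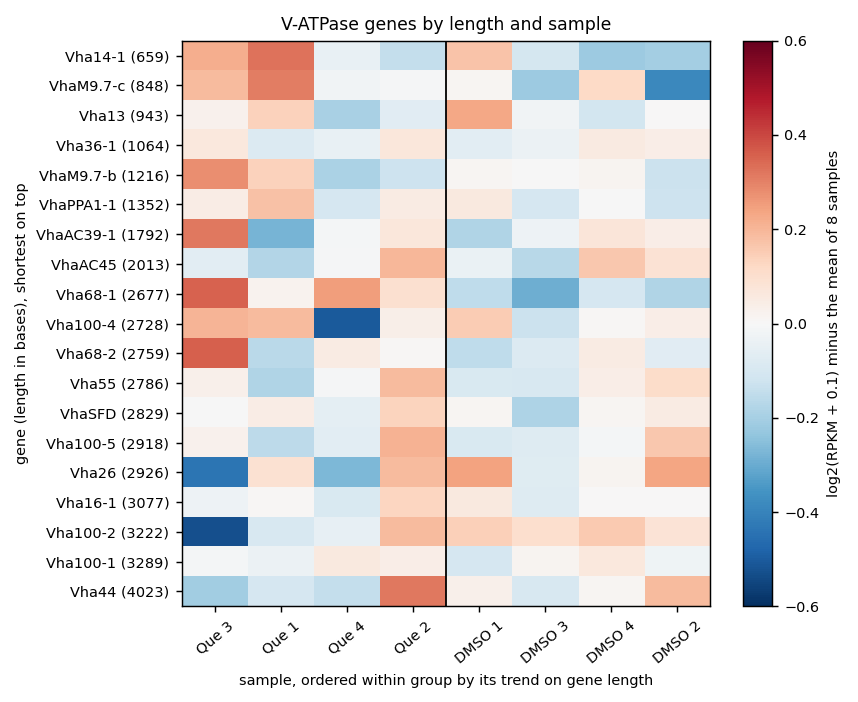
Deviation of log2(RPKM + 0.1) from the mean of the 8 samples (colour) for the 19 abundant V-ATPase genes, ordered from the shortest (Vha14-1, 659 bases) to the longest (Vha44, 4023 bases), in 4 Que and 4 DMSO samples. In Que 2 and DMSO 2 the longer genes were higher, with Spearman correlations of 0.68 and 0.62, and in Que 3 the shorter genes were higher, with -0.61.

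Genes that act with the pump were read from fixed lists and gave no adjusted p under 0.05. Of 6 genes for assembly and regulation, 2 were above 0 and 4 below, with a median log2 fold change of -0.14. Rbcn-3B, a partner of Rbcn-3A in the complex that assembles V1 with V0, was at 53.9 ± 9.55 RPKM (SD, n = 4) in the Que group and 66.1 ± 3.43 RPKM (SD, n = 4) in the DMSO group. This gave a log2 fold change of -0.31 (SE 0.13), with an unadjusted p in limma of 0.0426, in a direction shared by 1.93% of all genes at that level, and an exact permutation p of 0.0571. Que 3 was lowest at 41.6 RPKM, and without it the log2 fold change was -0.19 (unadjusted p in limma 0.0737). With the length trend removed it was also -0.19 (p 0.0723), and the unadjusted p was under 0.05 in 9 of the 19 other settings. Mitf, the transcription factor known to drive V-ATPase genes in the fly, was at 5.74 against 6.29 RPKM on average, with a log2 fold change of -0.16 (SE 0.20). ATP6AP2, an accessory subunit whose symbol does not begin with Vha, had a log2 fold change of 0.06 (SE 0.09).

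Of 13 lysosomal and TOR pathway genes found, 1 had an unadjusted p under 0.05, beside 3.62% of all genes. This was RagA-B, the GTPase that recruits TOR to lysosomes, with 88.3, 101, 89.5 and 91.0 RPKM in Que 1 to 4 and 104, 108, 111 and 114 RPKM in DMSO 1 to 4. All Que samples were below all DMSO samples, as for 1.26% of all genes, with a log2 fold change of -0.24 (SE 0.08, exact permutation p = 0.0286) and a limma adjusted p of 0.946. None of 14 genes of the acid region of the middle midgut had an unadjusted p under 0.05, and their median log2 fold change was -0.01. None of 12 genes of the mitochondrial F-type ATP synthase did, with a median of 0.06. The median over all genes tested was -0.02.

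Markers of other cells were measured beside these results. Malpighian tubules, the renal tubules attached at the end of the midgut, are rich in V-ATPase. Their 9 markers summed to 34.0 to 45.8 RPKM with Que and 35.2 to 53.2 RPKM with DMSO, mostly from Irk1 and Irk2. Of the 8 tested, 6 were below 0, with a median log2 fold change of -0.66, and none had an unadjusted p under 0.05. Irk1 and Irk2 were above 0, at 0.01 and 0.10. Among the lower ones, Oatp58Dc had a log2 fold change of -1.03 (SE 0.46) at 0.286 against 0.757 RPKM on average. Its DMSO values were 0.369, 0.555, 0.449 and 1.66 RPKM in DMSO 1 to 4, so the DMSO mean leaned on DMSO 4. Uro, the urate oxidase that defines the tubule, ran from 0.605 to 3.36 RPKM with Que and from 1.53 to 6.68 RPKM with DMSO. DMSO 4 was the highest sample for Uro as well. CapaR was at 0.010 RPKM with Que and 0.096 RPKM with DMSO on average, below the level for testing. It ran from 0 to 0.040 RPKM with Que and from 0.016 to 0.154 RPKM with DMSO. These groups overlapped, and no difference is read at this level. The sum of the copper cell markers lab, Ptx1 and ct was 30.8 to 38.5 RPKM with Que and 29.8 to 38.4 RPKM with DMSO, mostly from Ptx1. The log2 fold change was -0.11 for lab, -0.01 for Ptx1 and -0.64 (SE 0.34) for ct. For ct the levels were 0.128 to 0.379 RPKM with Que and 0.231 to 0.526 RPKM with DMSO. With Vha100-4, all 4 copper cell genes were below 0, and none had an unadjusted p under 0.05 in limma. The sum of 5 neuron markers was 14.2 to 14.6 RPKM with Que and 14.96 to 15.97 RPKM with DMSO. It was lower in every Que sample. Of the 5 genes, nSyb, the largest part of the sum, did not overlap between the groups, and the other 4 overlapped. Its level was 7.25 to 7.64 RPKM with Que and 7.85 to 8.30 RPKM with DMSO. Groups lay apart in this direction for 1.26% of all genes. The unadjusted p of nSyb in limma was 0.185 and the adjusted p was 0.946. The sums of the visceral muscle, enterocyte, progenitor, enteroendocrine and ovary markers overlapped between the groups. The ovary sum was 5.26 RPKM in DMSO 1, 2.07 to 2.40 RPKM in the other DMSO samples and 1.71 to 2.36 RPKM with Que. The part of these cells in the levels above was not tested.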

How the data were processed

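RNA of 8 midgut samples (4 Que, 4 DMSO) was sequenced by the authors with paired reads. They trimmed reads with Trimmomatic 0.36, mapped de-duplicated consensus sequences to the ISO1 genome with STAR 2.5.3a and counted reads per gene with featureCounts 1.5.1 (versions per the submitters' processing notes and the study's methods). The authors deposited RPKM, with no scaling between samples. Strand setting and treatment of reads with several alignments are not given in the sources used here. RPKM multiplied by gene length and assigned reads gave whole reads (within 0.01 read) for 100% of values, and these depths are given in the text. The 95% intervals come from the spread between samples, and the floor of 3 reads covers counting error only. Of values from 1 to 10 reads, 68.2% were even, as where both ends of a fragment are counted, so reads may exceed molecules.

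Samples were grouped by their labels. Values were analysed as log2(RPKM + 0.1), the scale of all fold changes, for the 13249 genes whose mean reached 0.1 RPKM, using limma 3.58.1 in R 4.3.3 (intensity trend, two-sided, no covariate, Benjamini-Hochberg adjustment). Low genes have their change understated on this scale. Exact permutation tests used all 70 arrangements of 4 against 4, with a smallest p of 0.0286. Tables and figures used Python 3.11.15, pandas 2.3.3, NumPy 2.4.6, SciPy 1.17.1 and matplotlib 3.10.9. The fit was tested on simulated data with larger fold changes than any member showed and with no length trend. This test gives no measure of how well changes as small as those of the members are found. Coordinates of all 30 members were the same in the RefSeq annotation of Release 6 and in Ensembl 115.

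Values per sample were given for the dominant gene of each subunit, the second paralog where its mean reached 1 RPKM, and any member with an unadjusted p under 0.05 or non-overlapping groups. Vha100-2, Rbcn-3B, RagA-B, Uro, Oatp58Dc, CapaR, nSyb, lab, Ptx1 and ct were added after their values were seen. The members and lists were chosen with earlier results of these data known. Alternatives were the pseudocount, the filter, the scaling, the empirical Bayes settings, a block for the replicate number, and leaving out each sample in turn. voom on recovered reads and removal of the length trend were chosen after seeing the data. Vha14-2 and VhaM9.7-d were not analysed here.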

Additional observations from a re-analysis of the deposited data

Results flagged for a closer look

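Of 60 groups of 4 values checked among the members, 4 held a sample set apart from the other 3 by Dixon's test, where chance gives about 1 in 20, or 3. In the DMSO group, VhaSFD was set apart by DMSO 3 at 57.7 RPKM (gap over range 0.831). VhaM9.7-b was set apart by DMSO 2 at 51.2 RPKM (0.869). The ratio of V1 without Vha13 to V0 without Vha16-1 was set apart by DMSO 2 at 1.88 (0.969). In the Que group, the share of Vha100-1 in subunit a was set apart by Que 4 at 11.02% (0.948), the sample in which Vha100-4 was lowest.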

How the results depend on the processing

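Of 379 log2 fold changes of the 20 members under up to 19 alternatives, 378 stayed within the spread between replicates of the reported value and 1 moved by more (Vha16-1, -0.16 with quantile normalization). The sign changed in 32 of the 379, all in 11 members whose reported log2 fold change was at most 0.07 in size and none of which had a p under 0.05 there. No member had an adjusted p under 0.05 under any alternative. Genes past an adjusted p of 0.05 numbered 0, and 2 with no filter, 3 with no intensity trend, 2 with array weights and 0 to 3 with each sample left out. Genes with an unadjusted p under 0.05 numbered 479, and 315 with a mean RPKM of at least 1, 1401 with array weights and 361 to 1195 with each sample left out, most without Que 2. Members with an unadjusted p under 0.05 numbered 1, and 2 with no filter, where 3.27% of all features were called (VhaPPA1-2 was added, with 0 to 2 reads per sample, too few to read a difference), and 1 to 2 with each sample left out. The difference of the V1 and V0 medians, 0.01, was -0.0355 to 0.0343 with each sample left out, and the median of all members -0.0027 to 0.048.

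The replicate numbers paired the samples only in part. Deviations of same-numbered samples correlated at 0.486, 0.281, 0.068 and 0.015 over 9154 genes. Among the DMSO samples, Que 1 correlated best with DMSO 1 and Que 2 with DMSO 2. Que 3 correlated best with DMSO 4 (0.302) and Que 4 with DMSO 3 (0.115). With the replicate number as a block, 1117 genes (8.43%) and 3 members had an unadjusted p under 0.05, with Vha14-1 and Vha26 added to Vha68-1.

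The promoter motifs were not searched. The cause of these changes was not tested. Depth limits the 10 members with at most 4 reads per sample.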
